A study of Mus musculus with 9 samples.

Results

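Fibronectin, thrombospondins and the matricellular proteins were followed through 9 genes in cells cultured from mouse tumors: Fn1, Thbs1, Thbs2, Spp1, Sparc, Tnc, Postn, Ccn1 and Ccn2. They were taken by their symbols from the 18049 genes listed for each library, and each was listed once. Bulk RNA-sequencing had been performed on 9 clones of primary cells grown from pancreatic tumors of WTg mice (MPC), which form 1 untreated group without control cells. WTg mice carry the EL1-Luc/EL1-Tag transgenes, in which the elastase I promoter of pancreatic acinar cells drives luciferase and the SV40 large T antigen, and CAG-Mettl3, in which the CAG promoter, active in most cell types, drives Mettl3. The tumors had been cut up and plated, and clones were picked from the outgrowth as separate colonies, 1 for each library. That each holds a single clone was not tested here. How many mice or tumors the clones came from is not given in the sources used here, and the p-values below measure the spread between these libraries. One protocol label names NMS-P937, an inhibitor of PLK1, whereas the treatment label reads none.

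Fibronectin is a large glycoprotein that cells pull into fibrils through integrins, and collagens, growth factors and other matrix proteins bind to it. Matricellular proteins are secreted into the matrix but build little of its structure. They act on cells through integrins and other receptors, and fibroblasts make many of them in wounds, fibrosis and tumor stroma. Of the 9 genes, Ccn1 and Ccn2 are textbook targets of YAP with TEAD factors and of SRF with MRTF coactivators.

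The promoter of Ccn1 is shown because it held the letters that TEAD factors bind. RefSeq windows on GRCm38.p6, from 250 bases before to 50 bases after a gene's start, were at hand for 6 of the 9 genes (Thbs2, Spp1, Sparc, Tnc, Postn and Ccn1; 9 windows). They were searched on both strands for GGAATG (the TEAD motif), TGANTCA (the AP-1 motif) and the CArG box of SRF. No 2 matches overlapped, since the only match lay in Ccn1, on the reverse strand at -103 to -98 from its start, and it is given in capitals in this stretch of the minus strand, chr3:145650071-145650100, read 5′ to 3′:
Ccn1 promoter: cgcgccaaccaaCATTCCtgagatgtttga
Among all 32851 windows of this length, 14.7% held GGAATG, 7.81% held TGANTCA and 1.63% held a CArG box. A match of this kind describes letters and not a bound site.

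Levels are given as normalized counts, which are reads multiplied by 1 scaling factor per library. The median depth was 18082572 reads on genes, and the range was 12198036 to 20453888. Libraries are called by their column names, which begin with MET_EL (1 library), Whe10 (4) or Whe3 (4). What these 3 prefixes stand for is not stated, and they were treated as possible batches. The MET_EL library was the shallowest, and the next had 16526371 reads. The labels call the cells fibroblasts, and the 12 fibroblast markers summed to between 154855 (Whe10_7A) and 475326 (Whe3_12A) normalized counts. All 16 macrophage markers were above the detection floor of 3 reads in every library as well, and summed to between 577428 and 908827. Of 7 epithelial markers, Epcam had 0 reads in every library, which allows up to 3.79 to 6.56 normalized counts, while Sox9 (67.8 to 226), Krt19 (7.23 to 145) and Cdh1 (8.91 to 152) were low but above the floor in all. Krt7 (0 to 158), Krt18 (0 to 6.47) and Krt8 (0 to 1.29) were not above the floor in every library. In such bulk RNA, fewer cells of a type and less RNA per cell cannot be told apart.

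The 9 genes together took up between 1.72% (Whe10_7A) and 4.69% (MET_EL) of all normalized counts of a library, with a median of 2.84%. Each of the 9 genes was highest in either of 2 libraries. MET_EL held the highest value of 6 genes (Thbs1, Thbs2, Spp1, Tnc, Postn and Ccn1) and Whe3_12A that of Fn1, Sparc and Ccn2. At the other end, Whe10_7A held the lowest value of 5 genes and was among the lowest 2 libraries for 8. For comparison, 19.9% of the genes averaging 10 or more normalized counts were highest in MET_EL, 14.6% were highest in Whe3_12A and 13.0% were lowest in Whe10_7A.

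Fn1 (ENSMUSG00000026193, chr1:71585473-71653280) encodes fibronectin. It stood at 201242 normalized counts in Whe10_7A, the lowest library, with a median of 275918 and a highest value of 432514 in Whe3_12A (276558 ± 70160, SD, n = 9). The clones thus covered a 2.15-fold range, the narrowest among the 9 genes, and 61.5% of the genes averaging 10 or more had a smaller SD of log2 values. On the scale of normalized counts, Whe3_12A stood apart from the other 8 libraries, of which MET_EL was the next with 316245.

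Thbs1 (ENSMUSG00000040152, chr2:118111876-118127133) encodes thrombospondin 1, a trimeric protein that binds CD47 and CD36 and can activate latent TGF-β. Its level was 383797 normalized counts in MET_EL. The Whe10 libraries held 77856 (Whe10_7A), 151207 (Whe10_8A), 113935 (Whe10_10A) and 133841 (Whe10_11A), and the Whe3 libraries 216780 (Whe3_5A), 246919 (Whe3_7A), 220600 (Whe3_11A) and 205001 (Whe3_12A). Every Whe3 library was above every Whe10 library, and MET_EL was above them all. The range was 4.93-fold (194437 ± 90498, SD, n = 9).

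Thbs2 (ENSMUSG00000023885, chr17:14665500-14694262) encodes thrombospondin 2, the closest relative of Thbs1, which limits the growth of vessels and takes part in the assembly of collagen fibrils. It varied more than any other of the 9 genes, 35.8-fold, and 96.8% of the genes averaging 10 or more had a smaller SD of log2 values. MET_EL held 72652 normalized counts. The Whe10 libraries held 5796 (Whe10_7A), 8920 (Whe10_8A), 13432 (Whe10_10A) and 9437 (Whe10_11A), and the Whe3 libraries 37564 (Whe3_5A), 24961 (Whe3_7A), 2030 (Whe3_11A) and 49078 (Whe3_12A). Thus 3 of the 4 Whe3 libraries were above all Whe10 libraries, while Whe3_11A was below all of them. The value of Whe3_11A rested on 1569 reads, with a Wilson interval at 95% of 1932 to 2133 normalized counts that covers counting error only and lies below the lowest Whe10 value.

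The 2 thrombospondin genes did not keep a fixed ratio between clones. The count of Thbs1 divided by that of Thbs2 was 5.28 in MET_EL, between 8.48 and 17.0 in the Whe10 libraries, 5.77 in Whe3_5A, 9.89 in Whe3_7A and 4.18 in Whe3_12A. In Whe3_11A it was 109. Lengths cancel in the comparison of this ratio between libraries, although the ratio itself does not tell which gene had more transcripts.

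Spp1 (ENSMUSG00000029304, chr5:104435111-104441053) encodes osteopontin, a secreted ligand of integrins and CD44 that macrophages also make. Its lowest value was 27264 normalized counts in Whe3_5A, its median 111435 and its highest value 195956 in MET_EL (107689 ± 55195, SD, n = 9). It was the only one of the 9 genes with its lowest value in Whe3_5A, where no other of the 9 was among the lowest 3 libraries.

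Sparc (ENSMUSG00000018593, chr11:55394159-55420080) encodes osteonectin, which binds collagen and calcium. The Whe10 libraries held 36765 (Whe10_7A), 77587 (Whe10_8A), 47209 (Whe10_10A) and 48756 (Whe10_11A) normalized counts, and the Whe3 libraries 69067 (Whe3_5A), 68776 (Whe3_7A), 93407 (Whe3_11A) and 98726 (Whe3_12A). MET_EL held 72945. The prefixes overlapped through Whe10_8A, and this is the only one of the 9 genes for which MET_EL was not among the highest 2 libraries.

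Tnc (ENSMUSG00000028364, chr4:63959785-64047015) encodes tenascin C, a matrix protein of wounds and tumor stroma. Its value was 34893 normalized counts in MET_EL, against a median of 12119 and a lowest value of 8207 in Whe10_11A (15154 ± 8415, SD, n = 9). The second highest library was Whe3_11A with 21894, the clone that was lowest for Thbs2.

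Postn (ENSMUSG00000027750, chr3:54359267-54391041) encodes periostin, which binds collagen and integrins. It covered a 9.91-fold range and was second to Thbs2 in its spread. MET_EL held 100347 normalized counts. The Whe10 libraries held 14384 (Whe10_7A), 19553 (Whe10_8A), 20188 (Whe10_10A) and 10129 (Whe10_11A), and the Whe3 libraries 51198 (Whe3_5A), 35707 (Whe3_7A), 15480 (Whe3_11A) and 60051 (Whe3_12A). As for Thbs2, the Whe3 library within the range of the Whe10 libraries or under it was Whe3_11A.

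Ccn1 (ENSMUSG00000028195, chr3:145646971-145649985) and Ccn2 (ENSMUSG00000019997, chr10:24595442-24598683) encode secreted ligands of integrins and proteoglycans of the same family. Ccn1 was lowest in Whe10_7A at 4963 normalized counts, with a median of 7997 and a highest value of 12611 in MET_EL (8575 ± 2638, SD, n = 9). Whe3_12A, with 12539, differed from MET_EL by little. Ccn2 was lowest in the same library at 23985, with a median of 52732 and a highest value of 70032 in Whe3_12A (50826 ± 13700, SD, n = 9). Their ranges were 2.54-fold and 2.92-fold, and both genes put Whe10_7A last and MET_EL and Whe3_12A first.

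**Figure D1:**
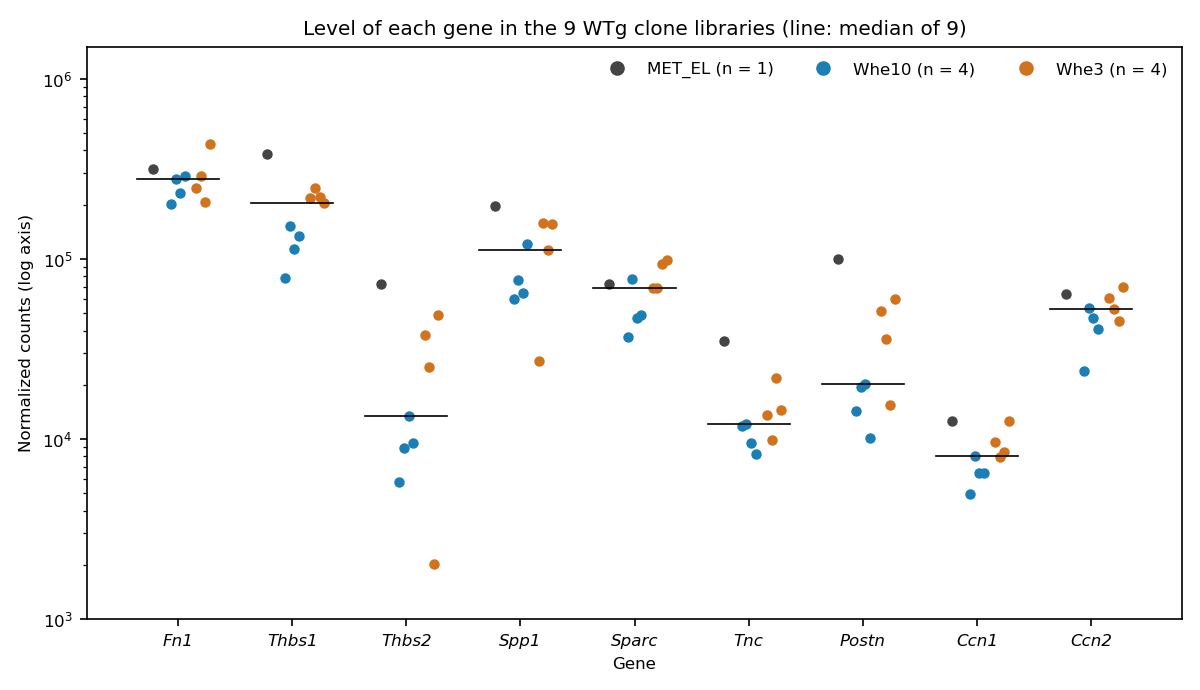
Normalized counts (log axis) of the 9 genes in each of the 9 clone libraries, coloured by the prefix of the column name, with a line at the median. Fn1, Ccn1 and Ccn2 covered ranges of 2.15-fold to 2.92-fold, while Thbs2 covered 35.8-fold with its lowest point in a Whe3 library.

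The 9 genes tended to be high in the same clones. Pearson's r of log2(normalized counts + 1) across the 9 libraries was positive for 36 of 36 pairs, from 0.11 (Fn1 and Tnc) to 0.90 (Ccn1 and Ccn2), with a median of 0.60. The median r of each of the 9 with all other genes lay between -0.09 and -0.03. Without MET_EL, 5 pairs turned negative, namely Tnc with Thbs2 (-0.33), Fn1 (-0.14) and Spp1 (-0.04) and Spp1 with Postn (-0.09) and Thbs2 (-0.07). By the exact two-sided permutation test over all 362880 pairings, 15 pairs had an unadjusted p under 0.05, and 5 pairs passed after Benjamini-Hochberg adjustment over the 36. With Spearman's rho 3 pairs passed. When 8 libraries were centred within the prefixes Whe10 and Whe3 and permuted within them, 26 of 36 pairs were positive and 6 had an unadjusted p under 0.05, but none passed the adjustment. The smallest p that pairings within prefixes can give is 0.0017, so that a single pair could not pass over 36, and this count says little about whether a relation holds there. All pairs share the same 9 libraries and are not independent of each other.

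Ccn1 and Ccn2 were the closest pair (r = 0.90, exact p = 0.00021, adjusted p = 0.0074; rho = 0.88, exact p = 0.0031, adjusted p = 0.037). Within prefixes r was 0.88 (exact p = 0.0052, adjusted p = 0.19, n = 8), without MET_EL it was 0.91, and without the 2 libraries farthest from the median of Ccn1 it was 0.89 (exact adjusted p = 0.080, n = 7). The adjusted p also rose above 0.05 without Whe10_7A (r = 0.90, exact adjusted p = 0.054) and without Whe3_12A (r = 0.88, exact adjusted p = 0.061). Leaving out any 1 library kept r of these 2 genes between 0.88 and 0.93.

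Thbs2 and Postn came next (r = 0.87, exact p = 0.0024, adjusted p = 0.033; rho = 0.88, exact adjusted p = 0.037). Within prefixes r was 0.88 (exact p = 0.033, adjusted p = 0.25, n = 8), without the 2 libraries farthest from the median of Thbs2 it was 0.93 (exact adjusted p = 0.080, n = 7), and leaving out 1 library at a time kept it between 0.83 (without MET_EL) and 0.95 (without Whe3_11A). The adjusted p stayed under 0.05 only without Whe10_11A or Whe3_11A and lay above it without any other single library. For Thbs1 and Thbs2, r was 0.54 (exact adjusted p = 0.22) over 9 libraries and 0.09 within prefixes. Whe3_11A decided this value, since r of the 2 thrombospondin genes was 0.90 without it (exact adjusted p = 0.016, n = 8), against 0.34 without MET_EL and 0.47 to 0.57 without any other single library.

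Ccn1 was also related to Thbs1 (r = 0.87, exact p = 0.0030, adjusted p = 0.033), Postn (r = 0.85, exact p = 0.0037, adjusted p = 0.033) and Sparc (r = 0.83, exact p = 0.0063, adjusted p = 0.045). By rho these 3 pairs did not pass (0.75, 0.83 and 0.80, with exact adjusted p of 0.092, 0.060 and 0.069). For Thbs1 and Postn the relation with Ccn1 did not hold within prefixes, where r was 0.48 (exact p = 0.27) and 0.54 (exact p = 0.21). For Sparc it was 0.78 within prefixes (exact p = 0.035, adjusted p = 0.25). Without the 2 libraries farthest from the median of the first gene the 3 values of r were 0.65, 0.65 and 0.62, and none passed. Leaving out 1 library kept r between 0.78 (without Whe10_7A) and 0.95 (without Whe3_12A) for Thbs1, between 0.79 (without MET_EL) and 0.90 (without Whe3_11A) for Postn and between 0.72 (without Whe10_7A) and 0.90 (without MET_EL) for Sparc. Thbs1 and Ccn1 passed only without Whe3_7A or Whe3_11A, Postn and Ccn1 only without Whe3_11A, and Sparc and Ccn1 only without MET_EL or Whe3_11A. Postn and Ccn2 passed by rho (0.92, exact p = 0.0013, adjusted p = 0.037) but not by r (0.74, exact adjusted p = 0.066). The count of pairs that passed was 0 without Whe10_7A or without Whe3_12A and 14 without Whe3_11A.

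**Figure D2:**
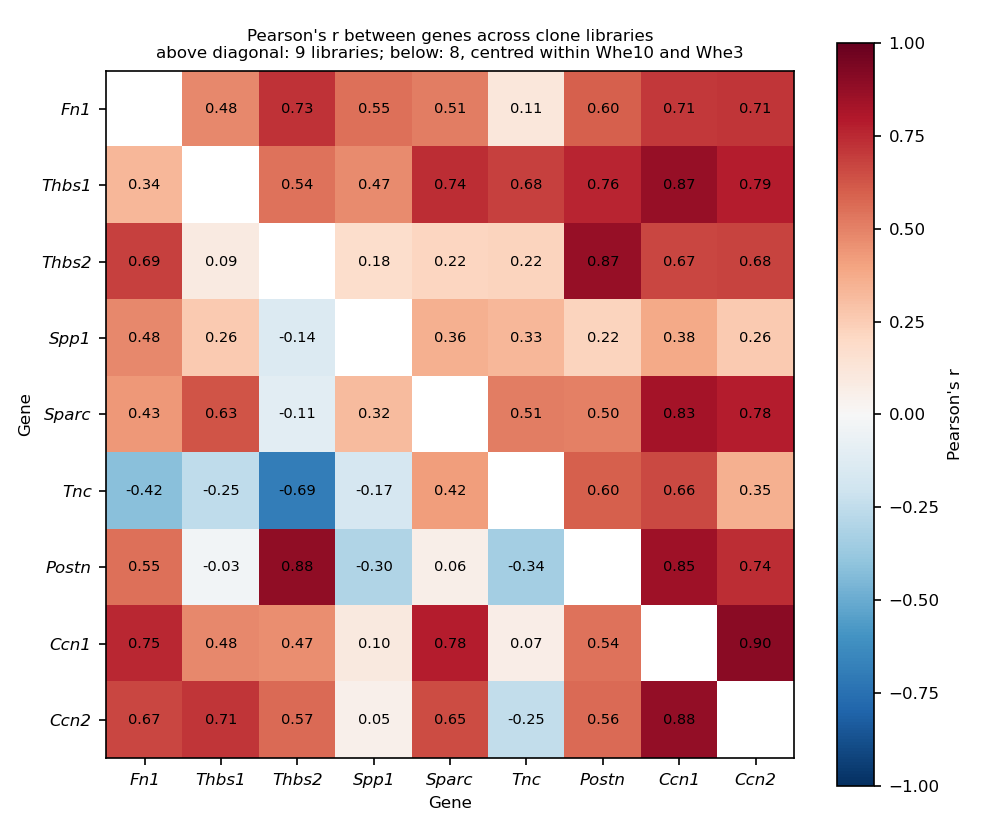
Pearson's r between the 9 genes, over 9 libraries above the diagonal and over 8 libraries centred within the prefixes Whe10 and Whe3 below it. All 36 values above the diagonal are positive and 26 below it are, with Ccn1 and Ccn2 and Thbs2 and Postn strong on both sides.

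The 9 genes were set against the fibroblast and macrophage markers of the same clones, and 3 passed with the former and 2 with the latter. The fibroblast score was the mean z-score of 12 markers (among them Col1a1, Pdgfra and Thy1) and the macrophage score that of 16 (among them Lyz2, Csf1r and Adgre1), none of them one of the 9 genes. The 12 fibroblast markers did not all run together. Dcn was at 2032 normalized counts in Whe10_7A and 217 in Whe3_12A, and Lum at 68.0 and 0. Fap was about the same in both, at 21.7 in Whe10_7A and 21.9 in Whe3_12A. The others of the 12 were higher in Whe3_12A than in Whe10_7A. Whe10_7A had the lowest fibroblast score (-0.81) and the highest macrophage score, MET_EL the highest fibroblast score (1.08) and Whe3_12A the lowest macrophage score (-1.27). All 9 genes had a positive r with the fibroblast score, from 0.61 to 0.94, whereas the median r over all genes was -0.06 and 47.9% of genes were positive. All 9 had a negative r with the macrophage score, from -0.93 to -0.27, where the median over all genes was 0.06 and 53.1% were positive.

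With the fibroblast score, 3 genes passed after adjustment over the 27 relations with both scores and Mettl3. Thbs1 had r = 0.94 (exact p = 0.00043, adjusted p = 0.0063) and rho = 0.90 (exact adjusted p = 0.018). Ccn1 had r = 0.90 (exact p = 0.00070, adjusted p = 0.0063) and rho = 0.87 (exact adjusted p = 0.030). Postn had r = 0.83 (exact p = 0.0035, adjusted p = 0.019) and rho = 0.77 (exact adjusted p = 0.076). Within prefixes r was 0.74 for Thbs1 (exact p = 0.080), 0.79 for Ccn1 (exact p = 0.052) and 0.29 for Postn (exact p = 0.45), so none held there at p under 0.05. Without the 2 libraries farthest from the median score, r was 0.83, 0.85 and 0.72, with exact adjusted p of 0.067, 0.054 and 0.12. Postn also failed without MET_EL (r = 0.66, exact adjusted p = 0.11) and without Whe3_12A (r = 0.82, exact adjusted p = 0.054). Fn1 had the smallest p within prefixes (r = 0.85, exact p = 0.0069, adjusted p = 0.094).

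With the macrophage score, Sparc had r = -0.93 (exact p = 0.00047, adjusted p = 0.0063) and rho = -0.95 (exact adjusted p = 0.0095). This relation also held within prefixes (r = -0.86, exact p = 0.0017, adjusted p = 0.047, n = 8), and without the 2 libraries farthest from the median score r was -0.89 (exact adjusted p = 0.050357, n = 7). Ccn1 had r = -0.87 (exact p = 0.0028, adjusted p = 0.019) and rho = -0.90 (exact adjusted p = 0.018), with r = -0.76 within prefixes (exact p = 0.042, adjusted p = 0.28). Ccn1 no longer passed without Whe10_7A (r = -0.84, exact adjusted p = 0.058) or without Whe3_12A (r = -0.83, exact adjusted p = 0.054). Scores and genes were measured in the same libraries, and whether the makeup of the cultures accounts for these relations was not tested.

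**Figure D3:**
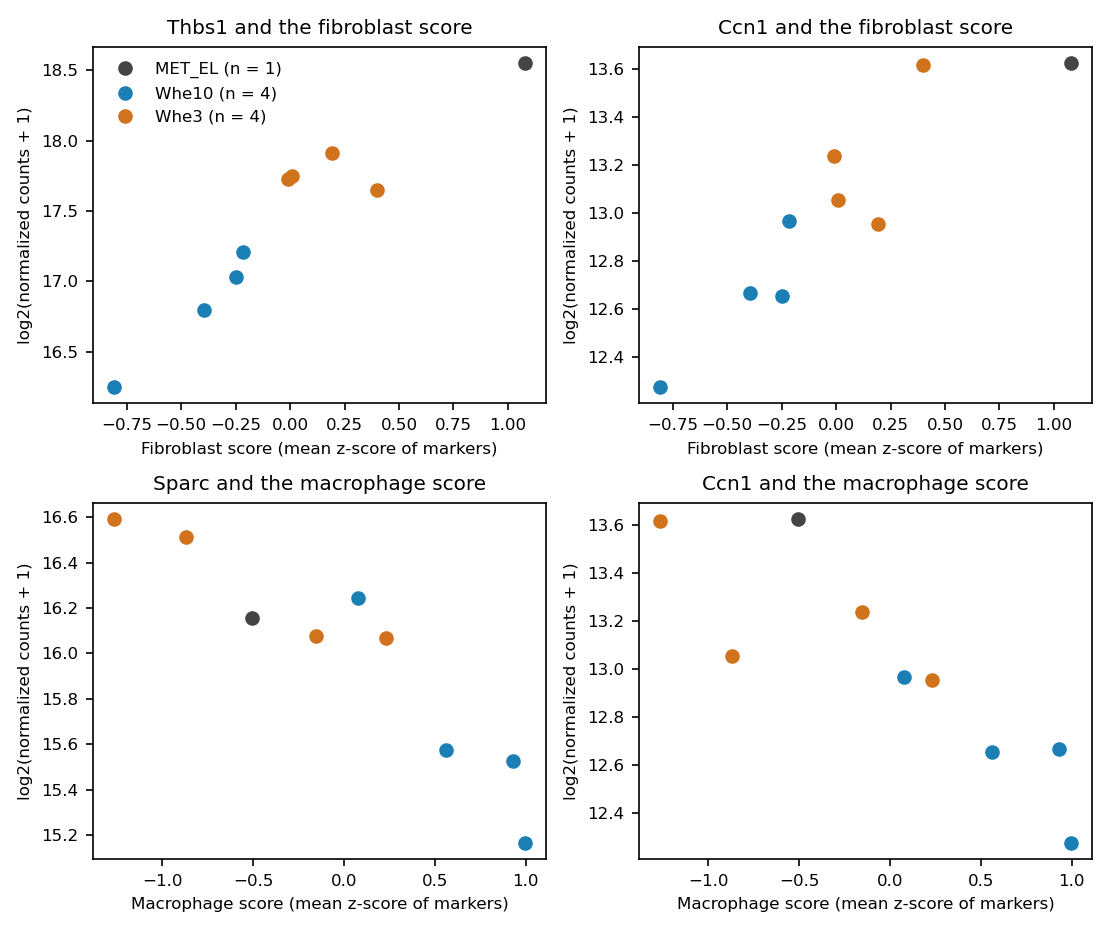
Levels of Thbs1, Ccn1 and Sparc (log2(normalized counts + 1)) against the fibroblast or macrophage score (mean z-score of 12 or 16 markers), 1 point per library. Thbs1 and Ccn1 are higher in clones with a higher fibroblast score (r = 0.94 and 0.90), and Sparc and Ccn1 are lower in clones with a higher macrophage score (r = -0.93 and -0.87).

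Thbs2 and Postn were also set beside the mesothelial markers Msln, Upk3b, Lrrn4 and Wt1, because the same clones stood apart. The 4 markers summed to 1200 normalized counts in Whe10_7A, 823 in Whe10_8A, 716 in Whe10_10A, 128 in Whe10_11A and 726 in Whe3_11A. In the remaining libraries they summed to 30.6 (MET_EL), 8.39 (Whe3_5A), 0 (Whe3_7A) and 28.1 (Whe3_12A). The 5 libraries with the higher sums were those with the 5 lowest values of both Thbs2 and Postn, and the 4 with the lower sums were those with the 4 highest. The 4 markers did not all run together, and no single one was above the floor in every library. In Whe10_11A, Msln and Lrrn4 (2.85 each) were under its floor of 4.27, and in Whe10_7A, with the highest sum, Msln was at 11.6. Wt1, a transcription factor that marks mesothelium, was at 472 normalized counts in Whe3_11A and at 0 in Whe3_5A and Whe3_7A. This correspondence was seen after the values were known and is given without a test, and it follows the prefixes in all Whe10 libraries.

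**Figure D4:**
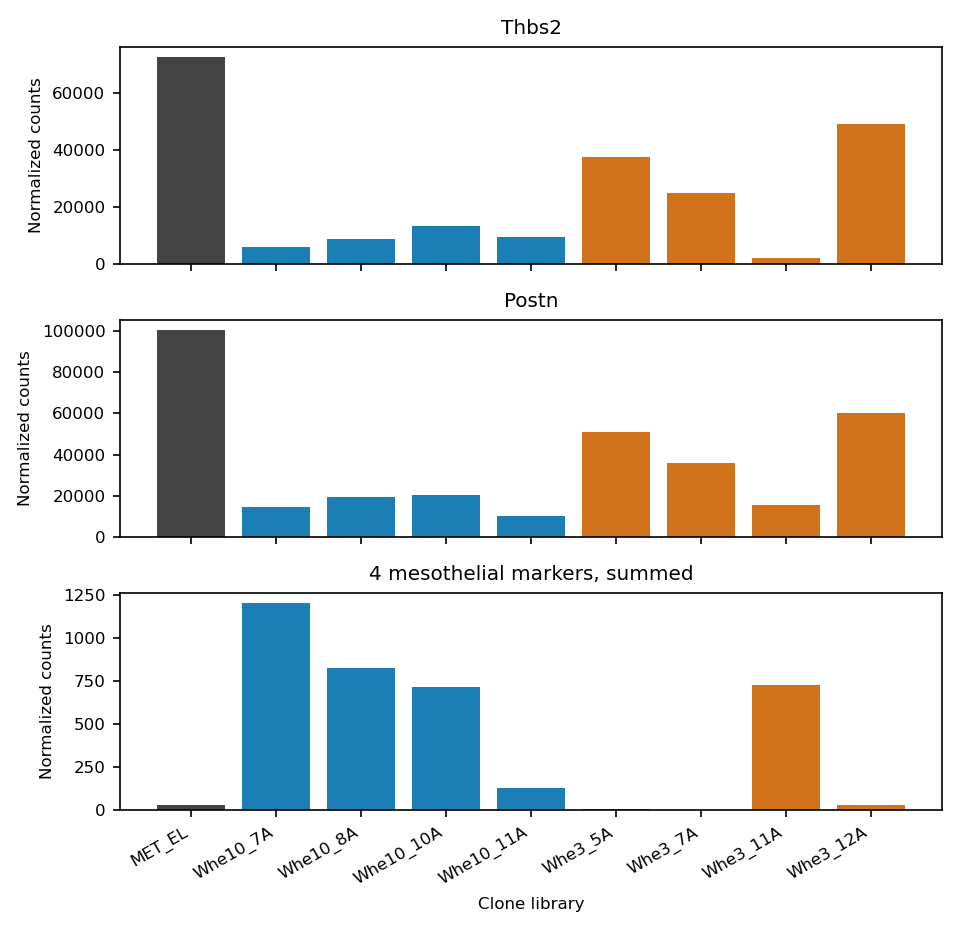
Normalized counts of Thbs2, of Postn and of the sum of 4 mesothelial markers in each clone library, with bars coloured by prefix as in the plot of levels. The 4 libraries with marker sums of at most 30.6 hold the 4 highest values of Thbs2 and of Postn, and Whe3_11A, with a sum of 726, has the lowest Thbs2 of all.

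The prefixes of the column names were compared because they may mark batches or source tumors. With limma over 16962 genes and Benjamini-Hochberg adjustment, 28 genes (0.165%) differed between the 4 Whe3 and the 4 Whe10 libraries, 17 higher in Whe3 (0.1%) and 11 lower (0.0649%). None of the 9 genes was among them, although 4 had an unadjusted p under 0.05, both with limma on log2 values and with voom, as did 18.6% of all genes. All 9 were higher on average in Whe3, with a median log2 difference of 0.57 among the 9. Of all genes tested, 47.5% were higher in Whe3, and their median log2 difference was -0.017. Xist, which is transcribed from the inactive X chromosome, was at 29664 or more normalized counts in every Whe10 library and at 8.39 or less in the others, so the prefix cannot be told apart from the sex of the source mouse, which the labels do not give.

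Thbs1 differed by 0.94 on the log2 scale (SE 0.24, limma adjusted p = 0.16). Its means were 222325 ± 17689 (SD, n = 4) in Whe3 and 119210 ± 31495 (SD, n = 4) in Whe10. It was the only one of the 9 whose prefixes did not overlap, as was the case in this direction for 4.24% of all genes, while 5.25% did not overlap in the other direction. Ccn1 differed by 0.57 (SE 0.18, limma adjusted p = 0.18), Postn by 1.22 (SE 0.42, limma adjusted p = 0.20) and Sparc by 0.68 (SE 0.24, limma adjusted p = 0.21). For the remaining 5 genes the limma adjusted p lay between 0.30 and 0.81. The largest standard error was that of Thbs2 (0.96, SE 0.91), for which Whe3_11A lay far below the other Whe3 libraries, and the smallest difference was that of Fn1 (0.20, SE 0.29), which came to -0.0068 without Whe3_12A. The difference of Thbs2 was 1.99 without Whe3_11A (limma adjusted p = 0.073) and 0.46 without Whe3_12A, and that of Spp1, 0.27 over all 8 libraries, was 0.86 without Whe3_5A (limma adjusted p = 0.15).

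**Figure D5:**
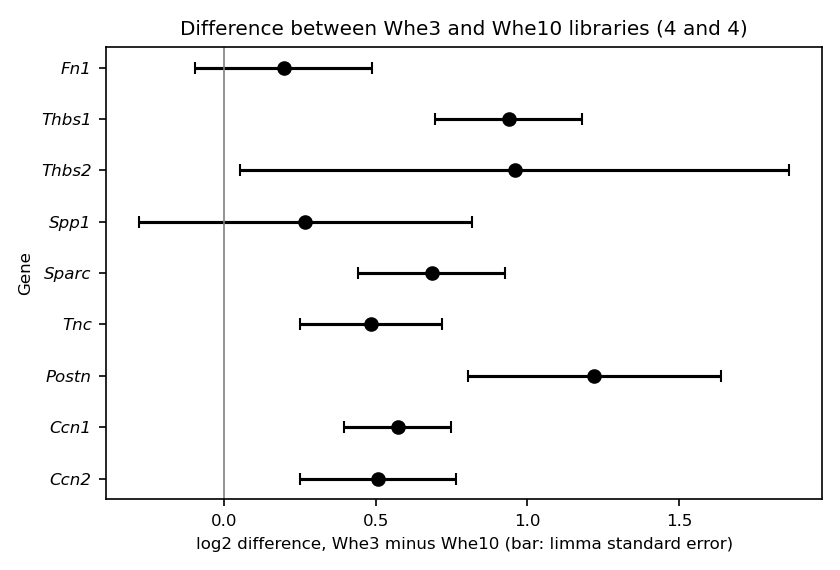
Difference of the 9 genes between the 4 Whe3 and the 4 Whe10 libraries on the log2(normalized counts + 1) scale, with limma standard errors as bars. All 9 points lie above 0, and no gene had an adjusted p under 0.05.

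Mettl3, the gene of the CAG transgene, was at 2184 normalized counts in MET_EL and between 468 and 621 in the other 8 libraries. Its prefixes did not overlap, with 515 to 621 in Whe10 and 468 to 502 in Whe3, as was the case in this direction for 5.25% of all genes. The reads do not tell the transgene from the gene of the mouse. Over 9 libraries, r with the 9 genes lay between -0.05 and 0.67 and none passed (lowest exact adjusted p = 0.19). Without MET_EL all 9 values of r were negative, and Thbs1 (r = -0.84, exact p = 0.0087, adjusted p = 0.033), Sparc (r = -0.87, exact p = 0.0056, adjusted p = 0.033) and Ccn1 (r = -0.81, exact p = 0.012, adjusted p = 0.036) passed. These relations cannot be told apart from the difference between the prefixes, since all 9 genes were higher on average in Whe3. Within prefixes 6 were negative and 3 positive, and none passed (lowest exact p = 0.10, lowest adjusted p = 0.35). Sparc was the one gene with a negative r also over 9 libraries (-0.05), and its r was -0.70 within prefixes (exact p = 0.10) and -0.91 without the 2 libraries farthest from the median of Mettl3 (exact adjusted p = 0.042, n = 7). For the other 8 genes r was positive over 9 libraries and negative without MET_EL, for Spp1 by only -0.0024. Within prefixes, where MET_EL is also left out, r stayed positive for Fn1 (0.07), Thbs2 (0.11) and Spp1 (0.24). By rho over 9 libraries, Thbs1 (-0.25), Tnc (-0.30), Postn (-0.12), Ccn1 (-0.30) and Ccn2 (-0.20) were negative already. Fn1 (0.17), Thbs2 (0.17) and Spp1 (0.27) were positive by rho.

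The other genes of the pathway were summarised by lists. Of 26 further matricellular proteins and glycoproteins, 22 were listed and 16 were above the floor in every library. The highest by mean was Fbln2, a fibulin of elastic fibres, which ran from 39752 (Whe3_5A) to 140700 (MET_EL) normalized counts. Igfbp7 ran from 11942 to 26088 and Mfge8, which bridges dying cells to integrins, from 6285 to 12668. Of the 20 that were tested between the prefixes, 0 passed (median log2 difference 0.41).

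All 14 receptors were above the floor in every library, and their sum varied less than that of the 9 ligand genes, from 180964 (MET_EL) to 244722 (Whe10_8A) against 436828 (Whe10_7A) to 1253213 (MET_EL). Lrp1, which takes up thrombospondins and other ligands, ran from 80994 to 131496 normalized counts and Itgb1 from 30138 to 45535, both lowest in MET_EL. Itgb5 ran from 13223 to 23210. Cd36, a receptor of Thbs1 named here after its values were seen, was at 87.5 in MET_EL, the clone with the highest Thbs1, and at 5206 in Whe10_7A, the clone with the lowest, with a median of 2052. The order did not run opposite to that of Thbs1 throughout, since Whe3_5A, with more Thbs1 than any Whe10 library, held 4356 of Cd36. None of the 14 passed between the prefixes (median log2 difference -0.00054).

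Among 20 further YAP and TEAD target genes, F3, which encodes tissue factor, passed between the prefixes, 2.79 higher in Whe3 on the log2 scale (SE 0.37, 6.90-fold, limma adjusted p = 0.042). The adjusted p of F3 ran from 0.027 to 0.14 over the 15 alternatives with limma and was under 0.05 in 7. The other 19 did not pass, among them Ccdc80, Axl and Myof, the highest by mean. The median log2 difference of the list was 0.34, against 0.57 for the 9 genes. None of 9 factors of the YAP, TEAD and MRTF/SRF group passed (median 0.31), of which Tead1 ran from 3010 to 6095 normalized counts, Mrtfa from 2418 to 3173 and Yap1 from 1783 to 3501. None of 9 genes that process fibronectin and matricellular proteins passed (median 0.40), and of these Mmp14, a membrane-bound protease of the matrix, ran from 5346 to 16100 normalized counts and Bmp1 from 3504 to 10174.

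None of the cell type marker lists held a gene that passed between the prefixes. The median log2 difference was 0.55 for the 12 fibroblast markers, close to the 0.57 of the 9 genes, and -0.37 for the 16 macrophage markers. Among the 12, Dcn (-1.79), Lum (-2.07) and Fap (-0.20) were lower in Whe3 and the others higher. It was -3.86 for the 4 mesothelial markers. The epithelial, acinar and endothelial lists, which summed to 162 to 540, 144 to 2415 and 156 to 429 normalized counts, had medians of 1.29, 2.58 and -0.20 over the 5, 6 and 4 genes tested. The acinar median rested on Whe3_5A and, to a lesser degree, on Whe3_12A. Prss2, Cela2a, Ctrb1, Cpa1 and Amy2a5 were at 147 to 610 normalized counts in Whe3_5A and at 9.37 to 51.5 in Whe3_12A, against 0 to 1.29 in Whe3_7A and Whe3_11A. Cela1, the only acinar marker above the floor in every library, differed by -0.12. Whether the cell makeup of the clones has a part in the differences of the 9 genes was not tested.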

How the data were processed

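RNA of 9 WTg clones was measured by stranded mRNA sequencing. The authors deposited log2 values per gene, made from read counts that were scaled by 1 factor per library and increased by an offset of 4. The submitters' processing notes list FastQC 0.11.9, STAR 2.7.10, RSEM 1.3.3 and the build GRCm38. The software used for scaling is not given in the sources used here. Coordinates are those of GRCm38.p6 in RefSeq. Of the 18049 identifiers, 18033 matched its gene names. The 6 columns of libraries from other studies were not used.

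Normalized counts were obtained by undoing the log2 and subtracting 4, and whole reads were recovered from the spacing of the low values, 1 read being worth 1.26 to 2.19 normalized counts. No library repeated another (chi-square of the most alike pair 22.6 per gene). The columns could not be matched to single sample titles, so the 9 libraries were used as 1 group. Relations used Pearson's r and Spearman's rho on log2(normalized counts + 1) with exact two-sided permutation tests and Benjamini-Hochberg adjustment over 36 pairs and over 27 relations. Prefixes were compared with limma (lmFit, eBayes with trend) over the genes that averaged 1 normalized count or more, at an adjusted p under 0.05. The tests were tested on simulated data.

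The members and lists were chosen with earlier results of these data known. Named genes were the 9 members, the 3 of each other list with the highest mean, those called between prefixes, the 3 most alike to each member by r among genes averaging 10 or more, markers beside a result, and Mettl3, and some genes that this rule names are not reported here. Alternatives were a pseudocount of 0.1, other scalings and filters, voom, no trend, centring within prefixes and leaving out libraries. Leaving out each library in turn for the relations was chosen after seeing the data. Levels per length were not computed, because no gene lengths were at hand, so levels are compared within genes only. Intervals and floors (3 reads) cover counting error only. R 4.3.3 was used with limma 3.58.1. Python 3.11.15 was used with scipy 1.17.1, numpy 2.4.6, matplotlib 3.10.9 and pandas 2.3.3.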

Additional observations from a re-analysis of the deposited data

Results flagged for a closer look

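Fn1 had 1 library far from the others. The gap between Whe3_12A, at 432514 normalized counts, and the next library, MET_EL at 316245, made up 0.503 of the whole range of the 9 libraries, above Dixon's 95% critical value for 9 values. The other 8 genes had no such library. This was computed on normalized counts only, and not on the log2 values used in the tests, where the ratio differs. Chance gives such a gap in about 1 in 20 groups, or 0.45 of 9 genes. The gap of Fn1 was seen at a level far above the detection floor, and its cause was not tested.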

How the results depend on the processing

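The mean level of each of the 9 genes was computed again under 2 other scalings and without MET_EL. The scalings changed a library by at most 0.068 on the log2 scale. Without MET_EL all 9 means were lower, that of Postn 28336 normalized counts against 36338 and that of Thbs2 18902 against 24874. For Fn1 it was 271597 against 276558. None of the 9 genes passed between the prefixes under any of 15 alternatives, and the differences kept their direction except that of Fn1, which ran from -0.0068 (without Whe3_12A) to 0.35 (without Whe3_11A) when 1 library was left out. The number of genes of all kinds that passed between the prefixes was 28, and it was 15 with no filter, 17 without the trend and 9 (without Whe10_10A) to 245 (without Whe3_5A) when 1 library was left out. The number of gene pairs that passed was 5, and it was 2 without MET_EL, 0 when centred within Whe10 and Whe3, 0 without the 2 libraries farthest from the median, and 0 to 14 when 1 library was left out. The number of relations with the fibroblast score that passed was 3, and it was 0 when centred and 0 without the 2 farthest libraries. With the macrophage score it was 2, and it was 1 when centred and 1 (without Whe10_7A or Whe3_12A) to 5 (without Whe3_11A) when 1 library was left out. Pairings within prefixes cannot give a p under 0.0017, which limits the counts when centred. Beyond that the cause was not tested.

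Relations with Mettl3 changed direction. None passed over 9 libraries, while 3 passed without MET_EL, where Mettl3 split by prefix, and 2 without the 2 farthest libraries. Without MET_EL, r was -0.20 for Fn1, -0.84 for Thbs1, -0.22 for Thbs2, -0.0024 for Spp1, -0.70 for Tnc, -0.67 for Postn, -0.81 for Ccn1 and -0.74 for Ccn2. Centred within prefixes, it was -0.45 for Thbs1, -0.47 for Tnc, -0.23 for Postn, -0.50 for Ccn1 and -0.55 for Ccn2, and for Sparc, negative throughout these settings, -0.70. For Fn1 (0.07), Thbs2 (0.11) and Spp1 (0.24) the centred r stayed positive. Without the 2 farthest libraries it was -0.37 for Fn1, -0.94 for Thbs1, -0.19 for Thbs2, -0.20 for Spp1, -0.56 for Tnc, -0.52 for Postn, -0.85 for Ccn1 and -0.81 for Ccn2. For Sparc it ran from -0.093 (without Whe10_10A) to 0.040 (without Whe3_11A) when 1 of the other 8 libraries was left out, and was 0.038 without Whe3_12A. No paired analysis was possible because the labels put the 9 libraries in 1 group and tie none of the numbers in the column names to each other across prefixes. Depth did not limit the members, which had at least 1569 reads in every library.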

Other observations

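Ccn5, a member of the family of Ccn1 and Ccn2 that lacks a domain they have, was named after its values were seen. It ran from 969 normalized counts in Whe3_11A to 16058 in Whe3_12A, with a median of 9117. Whe10_7A, at 993, was next to Whe3_11A, and the other 7 libraries held 6632 or more.

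The genes whose levels were most like those of a member across the 9 libraries are given as a description without a test. They were sought among 14692 genes, where 1 in 100 reached an r of 0.81 to 0.89 by member. For Ccn2 they were Sdc2, a syndecan (r = 0.99), Neo1 (0.98) and Bgn, the proteoglycan biglycan (0.98), and for Ccn1 Zc3h12b, Slc12a4 and Ktn1 (0.98 each). Thbs1 was most like Tcaf1 (0.98), Adcy6 (0.97) and Tpm4, a tropomyosin (0.96). Thbs2 was most like Twist2, a transcription factor of mesenchyme, Iws1 and Pacs2 (0.95 each). Serpinf1 and Pfkp were among the genes most like Postn (0.96 each). For Spp1 they were Ptpn9 (0.98), Ifitm3 (0.97) and Itga2b (0.97), and for Sparc Pcgf3 (0.97), S100a11 (0.94) and Fam149a (0.94). Fn1 was most like Itih2 (0.98), Zhx3 (0.97) and Nsd1 (0.95), and Tnc was most like Mmadhc, Vcp and Eif3g (0.94 each).

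The acinar markers summed to 2415 normalized counts in Whe3_5A, the library with the lowest Spp1, and to between 144 and 396 in the other 8. In MET_EL the whole sum was Cela1 (144). The next highest sum was that of Whe3_12A (396), where Spp1 was high, at 155415. This was not a planned comparison and is given without a test.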
